A study of Homo sapiens with 14 samples.

Results

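RiboLace libraries of wild-type OCI-AML2 cells were compared with total RNA of the same line, 2 libraries of each, 4 of the 14 libraries in the series. OCI-AML2 is a human acute myeloid leukaemia line. Both groups carry 2 intact RUNX1 alleles, named Runx1wt/wt in the labels, and are labelled as untreated; all cells grew in alpha-MEM with fetal bovine serum. The members were taken by their labels, with no measured value used. To estimate the spread, the fit also held 4 libraries of line F3, derived from the same cells, which carries the RUNX1 stop allele R174* beside a wild-type allele: 2 RiboLace libraries without treatment and 2 total RNA libraries labelled as 8 h controls, whose column names carry the same 0h tag as wild-type total RNA. The labels do not say that the 2 assays used the same cultures, nor that replicates are separate cultures. A difference between cultures therefore cannot be told apart from the pull-down, and p-values measure only the spread between these libraries.

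RiboLace captures ribosomes in the act of elongation with beads that carry a puromycin analogue, so RNA bound to those ribosomes is enriched over RNA at rest. Puromycin mimics the end of an aminoacyl-tRNA and enters the ribosomal A site. An mRNA's share in the pull-down against its share in total RNA therefore reads how much of it is on capturable ribosomes, together with whatever else the beads and the library chemistry retain. Ribosomal proteins and many translation factors are made from TOP mRNAs, whose 5′ ends start in a run of pyrimidines and whose use by ribosomes is set by mTOR. Secreted and membrane proteins are made by ribosomes docked on the endoplasmic reticulum, and the 13 mRNAs of the mitochondrial genome are read by mitochondrial ribosomes.

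Total RNA held 19296906 and 21138358 counts, and RiboLace held 2034796 and 1054581, so a low gene is measured less exactly in the pull-down. Genes with 10 or more reads numbered 13464 and 13475 in total RNA and 10854 and 9536 in RiboLace. Levels below are CPM, the reads of a gene per 1000000 reads of the library, scaled by TMM factors. The log CPM of the total RNA replicates correlated over genes at 0.995, and that of the RiboLace replicates at 0.925. Myeloid markers, which define the lineage of the line, were present in both assays: their summed level came to 3873 and 3167 CPM in total RNA and to 4955 and 3681 CPM in RiboLace. The 15 erythroid markers were at or near 0, at 0.203 and 0.274 CPM in total RNA and 0 and 1.93 CPM in RiboLace. Lymphoid markers were not absent: the 14 summed to 146 and 142 CPM in total RNA and 162 and 137 CPM in RiboLace. The 12 megakaryocyte markers summed to 6.18 and 5.07 CPM and to 12.1 and 6.77 CPM. The summed level of the markers of adherent cells went from 9.98 and 12.9 CPM to 231 and 567 CPM, of which the collagen gene COL6A3 made up 215 and 549 CPM against 0.152 and 0.183 in total RNA. The part of that marker list in other results was not tested.

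The clearest difference between the assays was in RNA type. Protein-coding genes took 98.1% and 98.2% of the counts in total RNA and 74.5% and 77.9% in RiboLace. MIR6087, a gene annotated as a microRNA, took 11.4% and 7.84% of the RiboLace counts and 3 reads in all of total RNA. Without that gene, protein-coding genes made up 84.3% of the RiboLace counts on average. Small nuclear RNAs, the RNA cores of the spliceosome, took 3.47% and 2.28% of RiboLace counts and 0.000876% and 0.000965% of total RNA. The snoRNAs, which guide modification of ribosomal RNA, took 0.818% and 0.876% against 0.00361% and 0.00343%.

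**Figure D1:**
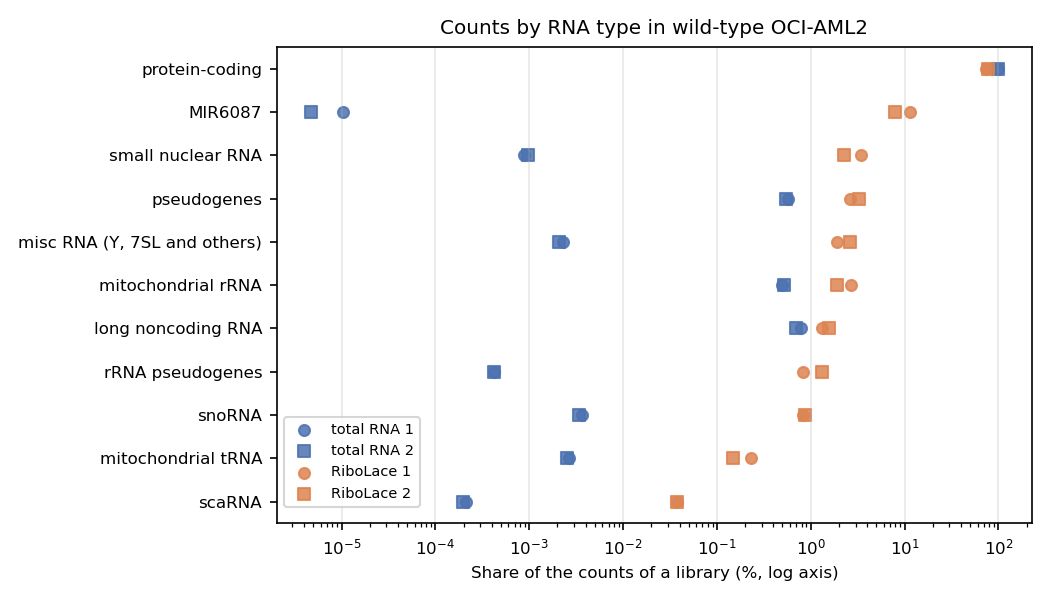
Share of the counts of each library by RNA type (log axis), with total RNA in blue and RiboLace in orange, circles for replicate 1 and squares for replicate 2. Protein-coding genes lie at 98.1% and 98.2% in total RNA and at 74.5% and 77.9% in RiboLace, and each of the other types drawn lies higher in both RiboLace libraries than in both total RNA libraries.

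Small RNAs of defined structure led these types, and 4 of the genes with the highest RiboLace levels or the smallest p in their class are shown with their sequence on the transcript strand of GRCh38. RNY1, a Y RNA of Ro particles made by RNA polymerase III, is shown whole because it had no read in total RNA. In RNU4ATAC, the U4atac RNA of the minor spliceosome, capitals mark a stretch of the kind bound by Sm proteins. In the box C/D snoRNA SNORD67 they mark the C box and the D box, and in the box H/ACA snoRNA SNORA53 the ACA trinucleotide before the 3′ end.
RNY1, chr7:148987136-148987248, minus strand: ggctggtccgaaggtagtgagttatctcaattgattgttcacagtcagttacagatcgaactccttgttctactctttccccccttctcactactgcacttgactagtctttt
RNU4ATAC, chr2:121530881-121531007, plus strand: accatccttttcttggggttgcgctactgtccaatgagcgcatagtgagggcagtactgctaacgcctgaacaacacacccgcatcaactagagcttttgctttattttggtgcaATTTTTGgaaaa
SNORD67, chr11:46762389-46762499, minus strand: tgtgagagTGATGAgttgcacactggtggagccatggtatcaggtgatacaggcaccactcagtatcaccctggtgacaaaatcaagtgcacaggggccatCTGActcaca
SNORA53, chr12:98599635-98599883, plus strand: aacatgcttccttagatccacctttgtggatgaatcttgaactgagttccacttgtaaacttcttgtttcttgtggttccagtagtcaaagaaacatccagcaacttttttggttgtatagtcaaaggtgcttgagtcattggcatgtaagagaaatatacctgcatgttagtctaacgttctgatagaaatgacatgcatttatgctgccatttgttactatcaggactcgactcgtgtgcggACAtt

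RNY1 had 0 and 0 reads in total RNA and 10165 and 8643 in RiboLace, or 5568 and 8357 CPM there. Set against a floor of 3 reads over the total RNA libraries, it was at least 91298-fold higher in RiboLace. RNU4ATAC had 1 and 0 reads against 14655 and 3123, a ratio of levels of 258893 (exact 95% interval 46460.2 to 10226300.0). The U5 gene RNU5E-1 stood at 8580.4 and 4303 CPM in RiboLace from 1 and 1 reads in total RNA. SNORA53 had 2 and 0 reads in total RNA and 1954 and 1537 CPM in RiboLace, and SNORD67 had 0.0507 and 0.137 CPM against 479.9 and 542 CPM. In each of these genes both RiboLace libraries lay above both total RNA libraries. The genes were picked for a high RiboLace level or a small p, so that order follows from the choice. Such intervals and floors cover counting error only.

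Summed by class, the box C/D snoRNAs went from 17.0 and 16.3 CPM to 3065 and 2969 CPM, and the box H/ACA snoRNAs from 11.8 and 10.7 CPM to 5660.2 and 5513 CPM. Small RNAs transcribed by RNA polymerase III went from 6.08 and 8.12 CPM to 7792 and 10052 CPM. Most of these genes reached the test only through their RiboLace reads, so the sums are given and no share of called genes. Mitochondrial ribosomal RNA, in contrast, was well counted in both assays, at 0.496% and 0.524% of total RNA and 2.67% and 1.88% of RiboLace. MT-RNR1, the small subunit RNA, rose by 2.59 ± 0.23 (SE, log2) and MT-RNR2, the large subunit RNA, by 2.23 ± 0.23. The labels do not give the selection step of either library type, so its part in these differences was not tested.

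Replication-dependent histone genes were near absent from total RNA and abundant in RiboLace. They package new DNA in S phase, and their mRNAs end in a stem-loop in place of a poly(A) tail. The 68 genes summed to 71.4 and 85.1 CPM in total RNA and to 21631 and 17285 CPM in RiboLace. HIST1H2AG rose from 57 and 92 reads to 2885 and 1181 reads in the shallower RiboLace libraries, or by 8.58 ± 0.29 (SE, log2). In CPM, HIST1H1B rose from 1.82 and 3.06 to 1157 and 1151, and HIST1H1C, which had the most total RNA reads of these 3, from 8.26 and 8.62 to 724 and 767. The rise of HIST1H1C was 6.46 ± 0.22 (SE, log2; adjusted p = 1.47e-16). The 46 genes that could be tested mostly passed the filter through RiboLace, so their count of calls is not used.

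The end structure is shown for 2 of these genes, HIST1H4B and HIST1H2BC, 30 bases of the 3′ UTR each, with the stem and loop in capitals.
HIST1H4B, chr6:26026894-26026923, minus strand: ttccaatGGCCCTTTTCAGGGCCgcccact
HIST1H2BC, chr6:26123465-26123494, minus strand: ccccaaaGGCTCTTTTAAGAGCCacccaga
A stem of 6 base pairs whose first arm begins GG and ends CT, with a loop of TTT and any base and a fully paired second arm, was searched on the transcript strand alone. It was found in 28 of 68 histone genes (41.2%) and in 7 of 19901 other protein-coding genes (0.0352%), of which H2AFX, HIST2H2AA3 and HIST2H2AA4 also encode histones. Of the 34 histone genes annotated with over 40 bases after the coding sequence, 28 held it (82.4%). HIST1H2BC went from 1.42 and 1.28 CPM to 391 and 345 CPM. HIST1H4B had 1 and 2 reads in total RNA and 866 and 369 in RiboLace, a ratio of levels of 5995 (exact 95% interval 2047 to 29109.7).

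Histone variants with a poly(A) tail did not share that pattern: of 9 tested, 1 rose and 4 fell, with a median of -0.16 log2 fold change. H3F3A, which encodes H3.3, fell from 91.8 and 92.1 CPM to 6.57 and 5.80 CPM, a change of -3.87 ± 0.26 (SE, log2). H2AFZ, which encodes H2A.Z, fell by 1.04 ± 0.20. Of the 9, H3F3A had 29.9% of its 30-base words in common with other genes; counts of such genes can be split between copies.

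A further set of coding genes was close to absent from total RNA and well counted in RiboLace. Among protein-coding genes tested, 231 had at most 3 reads over the total RNA libraries, and 62 of these reached a mean of 20 CPM in RiboLace. They took 1.14% and 1.94% of the RiboLace counts. CXXC4, a regulator of Wnt signalling, had no total RNA read and stood at 1867 and 3722 CPM, at least 35232-fold higher. ZIC5 and FEZF2, transcription factors of the nervous system, stood at 1538 and 2137 CPM and 908 and 1704 CPM with no total RNA read. MAF, a bZIP transcription factor, was at 965 and 2039 CPM, also with no total RNA read.

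Some of these genes held a run of GC trinucleotides, a feature chosen after values were seen. A perfect run of GCC or GGC repeats of 15 bases or more lay in an annotated transcript of 20 of the 62 genes (32.3%). Among all protein-coding genes tested the share was 7.75%, and among the 231 with at most 3 total RNA reads it was 21.6% (50 genes). Leaving histone and MTRNR2L genes out of the 62 gave 20 of 54 (37.0%). Examples are shown on the transcript strand, with the repeat in capitals.
CXXC4, coding sequence, chr4:104491305-104491334, minus strand: ggtGGCGGCGGCGGCGGCGGCGGCGGCagc
ZIC5, coding sequence, chr13:99970420-99970449, minus strand: GCCGCCGCCGCCGCCGCCGCCGCCGCCGCC
MAF, 5′ UTR, chr16:79599906-79599935, minus strand: agcGGCGGCGGCGGCGGCGGCGGCGGCagg
GSG1L, coding sequence, chr16:28063198-28063227, minus strand: ccccGCCGCCGCCGCCGCCGCCGCCaccgc
GSG1L, which encodes a membrane protein linked to AMPA receptors, was at 1063 and 1477 CPM in RiboLace with no total RNA read. The runs were searched in every annotated transcript of a gene, so a gene with more transcripts had more places to hold one. The runs show nothing of where the counted reads lie, and their part in the counts was not tested.

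Across all genes, 7408 of 15338 tested were called at an adjusted p under 0.05 (edgeR quasi-likelihood test, Benjamini-Hochberg), which is 48.3%. Of these 4194 were higher in RiboLace (27.3% of genes tested) and 3214 lower (21%). Among protein-coding genes, 2314 of 11816 rose (19.6%) and 2921 fell (24.7%), so 44.2% of the coding calls were rises. The balance depended on the scaling: the share of rises was 33.7% with library totals and 56.2% with total RNA thinned to the RiboLace depth. No gene called here was called in the opposite direction in any of the settings tried. The counts of each functional group below are to be read against 19.6% and 24.7%.

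Genes with the highest rises among those well counted in both assays came from several functions. The kinase gene BRSK1 stood at 14.6 and 11.7 CPM in total RNA and 3689 and 6905 CPM in RiboLace, a rise of 8.65 ± 0.36 (SE, log2). RUNX2, a paralogue of RUNX1 at chr6:45328157-45664349 (GRCh38), went from 51.3 and 68.1 CPM to 5279 and 3954 CPM, a rise of 6.27 ± 0.27. TENT4A, a poly(A) polymerase, rose by 5.62 ± 0.24, FCGR2A, an Fc receptor, by 5.18 ± 0.23, and CTC1, a telomere maintenance factor, by 4.88 ± 0.20. MEX3C, an RNA-binding ubiquitin ligase, and PPTC7, a mitochondrial phosphatase, rose by 4.79 ± 0.26 and 4.64 ± 0.24. Of these 7 genes, RUNX2, TENT4A, MEX3C and PPTC7 hold a GC trinucleotide run of 15 or more bases. All 7 were named by a rule that asked for no overlap between the groups, so their separation is not a result.

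Among genes that fell, several are abundant in total RNA. RPL7 went from 942 and 869 CPM to 9.31 and 13.5 CPM and RPS3A from 602 and 563 to 13.7 and 11.6. EEF1A1, the elongation factor that brings aminoacyl-tRNA to the ribosome, fell by 4.96 ± 0.23 (SE, log2), from 8867 and 9041 CPM to 303 and 269.8 CPM. TMSB4X, which binds actin monomers, fell by 4.42 ± 0.23, HNRNPA1, a splicing regulator, fell by 4.59 ± 0.23, and SLC6A8, the creatine transporter, fell by 4.20 ± 0.25. TBC1D30, a Rab GTPase-activating protein, fell from 431 and 491 CPM to 6.57 and 9.67 CPM. The TBC1D30 transcript shared no 30-base word with another gene. The shared part was 84.6% for RPS3A, 71.6% for HNRNPA1, 67.0% for RPL7, 34.0% for EEF1A1, 22.2% for SLC6A8 and 17.1% for TMSB4X.

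**Figure D2:**
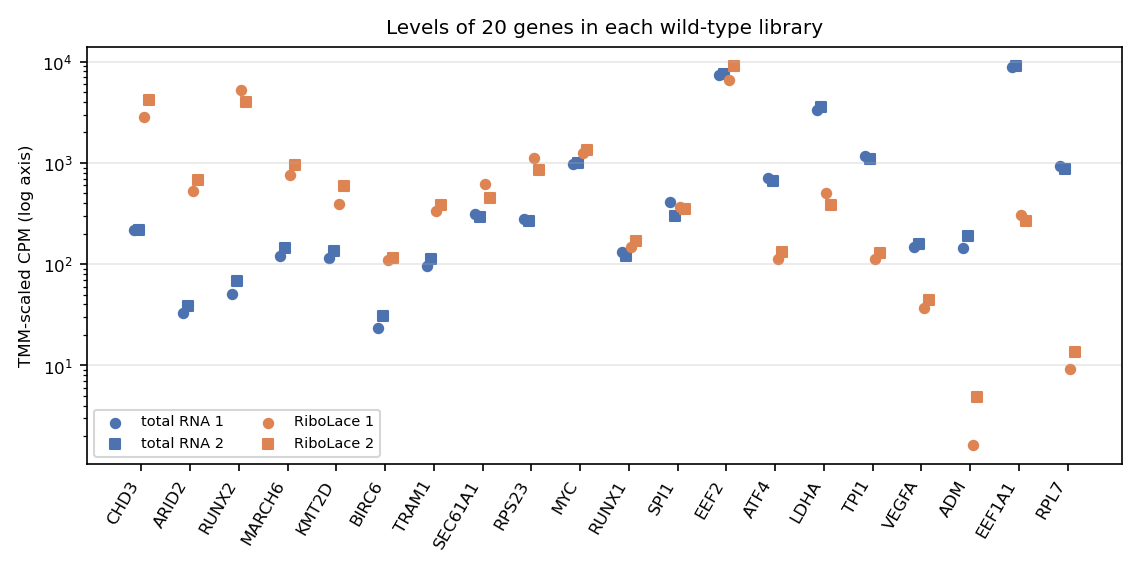
Level of 20 genes in each wild-type library (TMM-scaled CPM, log axis), with total RNA in blue and RiboLace in orange, circles for replicate 1 and squares for replicate 2. RUNX2 and CHD3 stand far higher in RiboLace, EEF1A1, RPL7 and ADM far lower, and SPI1 and EEF2 overlap between the assays.

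Ribosomal protein genes lay below the coding background. Of 86 tested, 6 rose and 59 fell, with a median of -1.27 log2 fold change, and their summed level came to 110436 and 99378 CPM in total RNA and to 50336 and 43518 CPM in RiboLace. RPS28 had the lowest value, from 613 and 536 CPM to 3.29 and 1.93 CPM, which is 6 and 2 reads, a change of -7.68 ± 0.32 (SE, log2). RPS7 fell by 4.54 ± 0.22. RPS23 rose from 279.8 and 264 CPM to 1119.7 and 861 CPM, RPS19 from 1527 and 1325 to 2260.1 and 2087 and RPS27L from 44.7 and 41.3 to 109.6 and 81.2. The rise of RPS19 was not called without the second total RNA library.

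The size of the fall went with sequence shared between genes. Ribosomal protein genes have many processed pseudogenes, and a read that matches several copies can be lost or split. In the 29 genes with over 50% of their 30-base words in another gene the median was -2.60, with 26 falls. In the 25 with at most 20% it was -0.46, with 12 falls and 3 rises. Over protein-coding genes without ribosomal proteins, the median went from -0.06 with no shared word to -0.39 with over 50%. In the 34 coding genes with at least 20 named pseudogenes the median was -2.36 for the gene alone and -1.56 when reads of its pseudogenes were added. The part of shared sequence in the falls was not tested beyond these values.

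**Figure D3:**
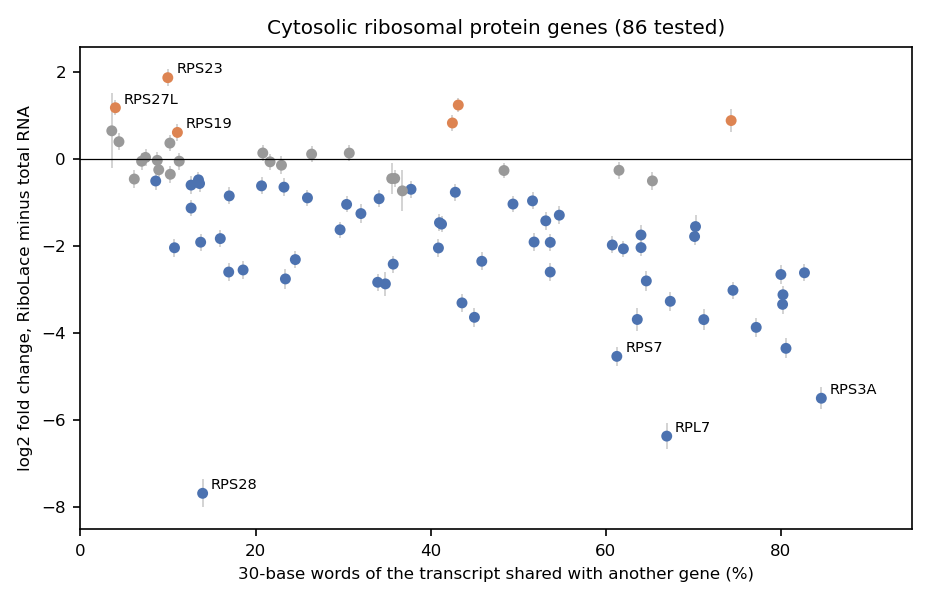
Log2 fold change (RiboLace minus total RNA, bars are standard errors) of the 86 ribosomal protein genes tested against the percentage of 30-base words shared with another gene; orange points rose, blue points fell and grey points were not called. Points sink to the right, from a median of -0.46 at up to 20% to -2.60 above 50%, and RPS28 stands apart at -7.68.

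The TOP start is shown for 4 of these mRNAs that moved in different directions: 10 bases before and 20 after the RefSeq start (GRCh38.p14), with the pyrimidine run from the start in capitals.
EEF1A1, chr6:73521013-73521042, minus strand: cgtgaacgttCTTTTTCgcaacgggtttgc
RPS7, chr2:3575250-3575279, plus strand: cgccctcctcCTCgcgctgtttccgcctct
RPS19, chr19:41860245-41860274, plus strand: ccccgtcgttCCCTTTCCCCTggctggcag
RPS23, chr5:82278335-82278364, minus strand: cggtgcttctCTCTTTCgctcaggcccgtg
EEF1A1 and RPS23 both begin with a run of 7 pyrimidines, and the first fell while the second rose. A run of 5 or more lay in 44 of 68 ribosomal protein genes with a RefSeq window (64.7%) and in 881 of 17440 windows (5.05%). The median was -0.84 in the 44 and -1.98 in the other 24. No test of this difference was made. Runs were counted from the annotated start base alone, so a pyrimidine tract that crosses it, as in RPS7, is cut short. The 24 can therefore hold TOP mRNAs, and their median is not that of genes without a TOP start.

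The other TOP mRNAs gave the same direction. Of 30 tested, 22 fell and the other 8 were not called, with a median of -0.99. NPM1, a nucleolar chaperone, fell from 2459 and 2476 CPM to 186 and 159.5 CPM, and TPT1, the tumour protein TCTP, fell by 1.29 ± 0.19 (SE, log2). NAP1L1, a nucleosome assembly protein, fell from 886 and 864 CPM to 296 and 301 CPM. EEF2, which moves the ribosome along, stood at 7421 and 7537 CPM in total RNA and 6625 and 9069.9 in RiboLace, a change of 0.07 ± 0.21, and was not called.

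Among genes that start translation, falls outnumbered rises. Of 55 translation initiation factors, 3 rose and 26 fell, with a median of -0.43. EIF4H, a helicase cofactor, fell from 508 and 533 CPM to 90.4 and 91.9 CPM and EIF2S2, the beta subunit of eIF2, fell by 2.24 ± 0.19 (SE, log2). Of 38 aminoacyl-tRNA synthetases, 2 rose and 10 fell, with a median of -0.25. Their share of falls, 26.3%, was near that of all coding genes, and 5 to 17 of them fell when a library was left out. Of 62 ribosome biogenesis genes, 10 rose and 15 fell, with a median of -0.15, shares near the coding background too, and 3 rose and 21 fell without the first RiboLace library. Among them RRS1, a 60S assembly factor, rose by 2.00 ± 0.16.

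Every glycolytic gene tested fell: 17 of 17, with a median of -1.77. TPI1, triosephosphate isomerase, went from 1165 and 1100.0 CPM to 113 and 129.6 CPM, and LDHA, which makes lactate, from 3325 and 3556 to 509 and 385. PGAM1 fell by 4.63 ± 0.29 (SE, log2) and GAPDH fell by 1.79 ± 0.21, both with over 50% shared words. HK2 fell by 2.23 ± 0.20 and PFKL fell by 0.70 ± 0.17, the latter with 0.208% shared words.

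Hypoxia-induced genes, a list drawn up after values had been seen, lay lower as well: of 38 tested, 30 fell and the other 8 were not called, with a median of -1.96. ADM, the vasodilator adrenomedullin, went from 144 and 191 CPM to 1.64 and 4.83 CPM, and PFKFB4, a regulator of glycolytic flux, from 176 and 197 to 7.67 and 7.74. BNIP3, a mitophagy receptor, fell by 4.93 ± 0.32 (SE, log2), NDRG1 fell by 2.24 ± 0.19 and VEGFA, the angiogenic growth factor, fell by 1.93 ± 0.20. ADM and VEGFA had no 30-base word in common with another gene. The cultures behind the 2 assays may differ, and culture and assay cannot be told apart here.

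**Figure D4:**
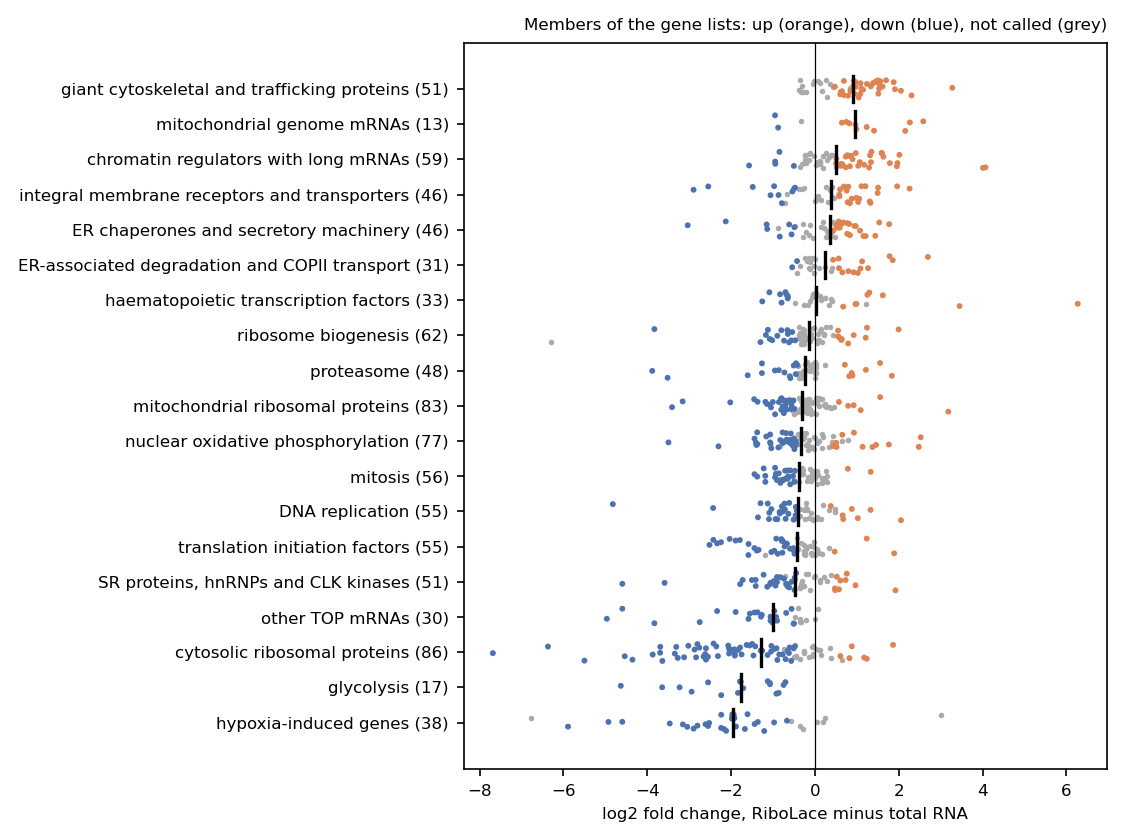
Log2 fold change (RiboLace minus total RNA) of every tested member of 19 gene lists, with the number tested in brackets; points are genes, orange called up, blue called down and grey not called, and the black bar is the list's median. The medians run from -1.96 for hypoxia-induced genes to 0.97 for mitochondrial mRNAs.

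Nuclear genes of mitochondria leaned lower. Of 77 nuclear genes of oxidative phosphorylation, 11 rose and 34 fell, with a median of -0.33. Without the first RiboLace library 5 rose and 45 fell, and without the first total RNA library 11 rose and 17 fell. SDHD, a membrane anchor of complex II, fell by 3.49 ± 0.26 (SE, log2) while ATP5ME, a small subunit of ATP synthase, rose from 16.8 and 15.3 CPM to 90.4 and 94.8 CPM. Of 83 mitochondrial ribosomal proteins, 6 rose and 31 fell, with a median of -0.30; 2 rose and 40 fell without the first RiboLace library. Proteasome genes (48 tested) and cytosolic chaperones (37 tested) gave 7 rises with 14 falls and 5 rises with 11 falls, shares of falls of 29.2% and 29.7%; leaving out a library gave 7 to 24 falls and 8 to 17 falls. HSPD1, the mitochondrial chaperonin, fell by 1.91 ± 0.19 and BAG3, a cochaperone of HSP70, rose by 1.10 ± 0.17.

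The mRNAs made inside mitochondria went the other way. Of 13, 10 rose and 2 fell, with a median of 0.97. MT-ND5, a subunit of complex I, stood at 962 and 884 CPM in total RNA and 6816 and 4259 in RiboLace, a rise of 2.59 ± 0.24 (SE, log2). MT-ND6, encoded on the opposite strand from the others, rose by 2.16 ± 0.24 and MT-CYB, of complex III, by 1.41 ± 0.24. MT-CO1, a subunit of complex IV, fell from 4850.0 and 4277 CPM to 2869 and 1848 CPM. The first RiboLace library was the higher of the RiboLace pair for each of these 4 genes, and without it 5 of the 13 rose and 3 fell, with a median of 0.47. Of 30-base words, 67.9% of MT-CO1 and 16.2% of MT-ND5 occur in another gene.

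Genes for the secretory pathway rose more often than they fell. Of 46 endoplasmic reticulum genes, 20 rose and 8 fell, with a median of 0.36. TRAM1, which sits beside the translocon, went from 95.8 and 113 CPM to 336 and 380.0 CPM, SSR4, a translocon-associated protein, from 121 and 104 to 394 and 252, and SEC61A1, the channel itself, from 316 and 290.0 to 616 and 449. The chaperone HYOU1 rose by 0.95 ± 0.18 (SE, log2). The signal recognition particle genes SRP9 and SRP72 went down: the first fell by 3.03 ± 0.24 and the second fell by 0.84 ± 0.18. The balance rested on the first RiboLace library: without it, 10 rose and 13 fell, with a median of 0.06, and without the second total RNA library 17 rose and 5 fell.

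Integral membrane receptors and transporters gave a like count. Of 46 tested, 20 rose and 10 fell, with a median of 0.39. NOTCH1 went from 28.8 and 29.2 CPM to 102 and 127 CPM, and IGF1R, the receptor of IGF1, rose by 1.50 ± 0.18 (SE, log2). CXCR4, the receptor of CXCL12, fell by 1.48 ± 0.22. FLT3, a receptor kinase of myeloid progenitors, fell by 0.87 ± 0.21. Without the first RiboLace library 15 rose and 13 fell, with a median of -0.045.

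Degradation and export genes of the same organelle, a list made after values had been seen, gave 13 rises and 2 falls among 31. Without the first RiboLace library 7 rose and 2 fell, and the median went from 0.24 to -0.14. MARCH6, a ubiquitin ligase of the reticulum, rose from 122 and 144 CPM to 758 and 964 CPM, and SEC24D, a coat protein of COPII vesicles, by 1.78 ± 0.17 (SE, log2). Of 27 granule proteins and myeloid effectors, 5 rose and 4 fell. CTSD, cathepsin D, fell by 1.19 ± 0.21. Without the first RiboLace library the calls in that list were 5 falls, without the second they were 8 rises and 4 falls, and without the second total RNA library 1 rise and 3 falls.

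Long coding sequences were over-represented in RiboLace. Of 76 genes with at least 9600 nucleotides of coding sequence, 56 rose and 2 fell, with a median log2 fold change of 1.10. From 4800 to 9600 nucleotides, 206 of 499 rose and 55 fell, with a median of 0.41. From 600 to 1200 nucleotides the median was -0.20. With coding genes in 5 equal classes by coding length, the median of the shortest class minus that of the longest was -0.284, and -0.19 with the first RiboLace library and -0.44 with the second (SD between them 0.176). Over genes, Spearman's rho with the fold change was 0.12 for coding length, 0.16 for transcript length and 0.0059 for GC content; genes share their library and are not independent. Within the class of the longest coding sequences the median rose with 3′ UTR length, from -0.11 to 0.45 from the shortest to the longest UTR class of 3 equal classes, and within the shortest class it went from -0.11 to -0.24.

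**Figure D5:**
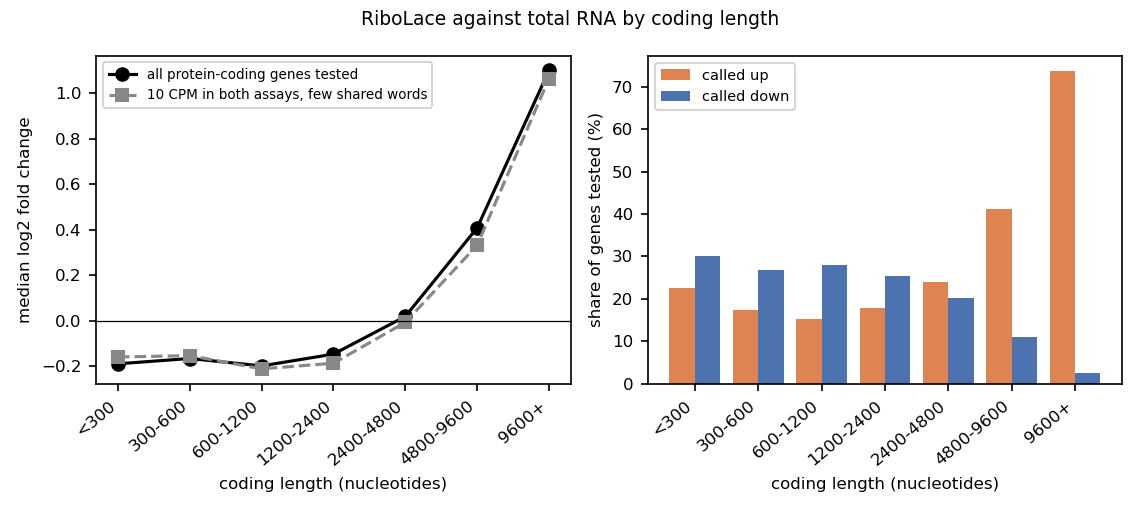
Left, median log2 fold change of protein-coding genes by coding length, for all tested (black) and for a stricter set (grey). The stricter set has a mean of at least 10 CPM in total RNA and at most 5% shared words. No RiboLace level was required for it, whatever the key says. Right, share of genes called up (orange) and down (blue). The median climbs to 1.10 at 9600 nucleotides and over, where 73.7% of genes rose and 2.63% fell.

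Giant cytoskeletal and trafficking proteins moved as that trend has it. Of 51 tested, 35 rose, with a median of 0.92, and the other 16 were not called. BIRC6, an inhibitor of apoptosis, went from 23.2 and 30.9 CPM to 111 and 114 CPM, VPS13C, a lipid transfer protein, from 29.1 and 40.5 to 192 and 149, and PLEC, which links intermediate filaments, from 103 and 99.6 to 353 and 395. MYH9, nonmuscle myosin, stood at 1483 and 1500.3 CPM and 1029.8 and 1299 CPM, a change of -0.36 ± 0.19 (SE, log2; adjusted p = 0.12). MYH9 passed under 5 other settings, among them library totals, at -0.48 (adjusted p = 0.0243), and leaving out the second RiboLace library, at -0.55 (adjusted p = 0.0159).

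Chromatin regulators with long mRNAs rose in 30 of 59 and fell in 5. CHD3, a remodeller of the NuRD complex, went from 217 and 218 CPM to 2835 and 4189 CPM, and ARID2, a subunit of PBAF, from 33.2 and 38.7 to 534 and 679.8; both hold GC trinucleotide runs of 15 bases or more. KMT2D, a histone H3K4 methyltransferase, rose by 1.96 ± 0.21 (SE, log2) and EP300, a histone acetyltransferase, by 1.34 ± 0.18. SMARCA4, the ATPase of BAF complexes, fell from 473 and 460.1 CPM to 204 and 285 CPM. Among 397 zinc finger genes of the C2H2 class, 52 rose (13.1%) and 108 fell (27.2%), the falls near the share over all coding genes. Without the first RiboLace library 34 rose and 61 fell, and without the second 32 rose and 109 fell.

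Genes of the cell cycle and of splicing were mostly lower or not called. Of 55 DNA replication genes, 7 rose and 24 fell, with a median of -0.40. CDC6, which loads the MCM helicase, rose by 1.33 ± 0.17 (SE, log2). Of 56 mitosis genes, 2 rose and 25 fell, with a median of -0.37, and without the second total RNA library 2 rose and 15 fell. KIF4A, a kinesin of chromosomes, fell by 1.44 ± 0.19 and ASPM, a long spindle pole gene, rose by 1.33 ± 0.18. Of 51 genes for SR proteins, hnRNPs and CLK kinases, 9 rose and 25 fell, with a median of -0.48.

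Long noncoding RNAs took 0.782% and 0.697% of the counts in total RNA and 1.32% and 1.56% in RiboLace. Single genes weighed on that sum. A gene at a bidirectional promoter had a mean of 0.0735 CPM in total RNA and 2802 CPM in RiboLace, and an antisense gene 0.142 and 1101 CPM. All long noncoding RNAs together came to 7648 and 6727 CPM in total RNA and 14662 and 15922 CPM in RiboLace. Of 1197 tested 219 rose and 130 fell, with a median of -0.02 log2 fold change. Both are smaller shares than the 27.3% and 21% over all genes tested. Of 12 nuclear ones on the list, 4 rose and 4 fell, and 2 rose and 4 fell without the first RiboLace library or without either total RNA library. NEAT1, the RNA of paraspeckles, fell by 1.22 ± 0.25 (SE, log2), and MALAT1, of nuclear speckles, changed by -0.43 ± 0.25 (adjusted p = 0.16), which did not pass. MALAT1 passed without a filter on low counts, at -0.54 (adjusted p = 0.00481), and without the second RiboLace library, at -0.65 (adjusted p = 0.032). KCNQ1OT1, an imprinted antisense RNA, rose by 2.84 ± 0.43, from 32 and 41 reads to 22 and 14. Of 26 snoRNA host genes, 9 rose and 6 fell. GAS5 went from 250.5 and 237 CPM to 1232 and 1021 CPM and SNHG1 rose by 2.09 ± 0.16, whereas SNHG16 fell by 1.42 ± 0.18. Reads of the snoRNAs inside a host gene cannot be told apart from it where the annotation overlaps.

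Some mRNAs have a use by ribosomes that is known to be regulated. Upstream open reading frames hold back a main coding sequence until stress, and of 25 such genes 5 rose and 7 fell. These shares, 20% and 28%, are near those over all coding genes. ATF4, the transcription factor of the integrated stress response, went from 713 and 659.6 CPM to 113 and 132 CPM, a change of -2.49 ± 0.21 (SE, log2), and its target DDIT3 fell by 2.14 ± 0.27. PPP1R15A, a phosphatase subunit that reverses eIF2 phosphorylation, fell by 1.53 ± 0.19. Of the 30-base words of ATF4, 36.6% occur in another gene, against 10.4% for DDIT3 and 0% for PPP1R15A. AMD1, of polyamine synthesis, rose by 0.69 ± 0.16.

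Iron-responsive elements control ferritin and the transferrin receptor in opposite ways. FTL, the ferritin light chain, went from 3364 and 3156 CPM to 574 and 571 CPM and FTH1, the heavy chain, fell by 2.11 ± 0.29 (SE, log2). TFRC, the receptor that brings in iron, rose from 355 and 398 CPM to 930.1 and 555 CPM. Of 7 such genes, 2 rose and 3 fell, with a median of -0.52. In the 4 of these 7 with the smallest part of shared words, 2 rose and none fell, with a median of 0.15. Of 30-base words, 34.4% of FTL, 83.25% of FTH1 and 0% of TFRC occur in another gene. The part of shared sequence in the ferritin falls was not tested. Of 16 selenoprotein genes, 3 rose and 3 fell, 18.8% each, which is not far from the shares over all coding genes.

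Among immediate early and short-lived mRNAs, 16 of 45 rose and 6 fell, with a median of 0.66. TNF went from 17.6 and 12.1 CPM to 70.7 and 69.6 CPM. ID2, a dominant negative bHLH protein, rose by 2.82 ± 0.37 (SE, log2). TNFAIP3, a brake on NF-kappaB, fell from 141 and 182 CPM to 43.3 and 41.6 CPM and BTG1 fell by 2.18 ± 0.22.

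Transcription factors of blood cells were called at shares near those of all coding genes. Of 33 tested, 8 rose and 8 fell (24.2% each, against 19.6% and 24.7%). MEIS1, a cofactor of HOX proteins, went from 34.6 and 40.6 CPM to 364 and 462 CPM, a rise of 3.45 ± 0.19 (SE, log2), and CEBPA rose by 1.25 ± 0.21 and GATA2 by 1.62 ± 0.22. IRF8 fell by 1.26 ± 0.19 and MYB fell by 0.70 ± 0.17, the latter not called without the second total RNA library. RUNX1 itself stood at 131 and 120.4 CPM in total RNA and 148 and 171 CPM in RiboLace, a change of 0.34 ± 0.16 (adjusted p = 0.091), and did not pass. With RLE size factors in place of TMM it was 0.42 (adjusted p = 0.0368), which passed, as it did under 5 further settings. MYC, at 0.39 ± 0.18, did not pass either, but did with RLE size factors, at 0.47 (adjusted p = 0.033), and under 7 further settings. SPI1, with 412 and 299 CPM against 363 and 347 CPM, did not pass.

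In the BCL2 family of 17 tested, 4 rose and 2 fell. BCL2, the antiapoptotic founder, went from 275 and 316 CPM to 164 and 214 CPM, a change of -0.66 ± 0.19 (SE, log2) that was not called without the second total RNA library, nor with total RNA thinned to the RiboLace depth, at -0.44 (adjusted p = 0.0832). BMF, a BH3-only protein, rose by 0.84 ± 0.19. MCL1, a short-lived survival protein, changed by -0.22 ± 0.17 (adjusted p = 0.30) and BCL2L1 by -0.65 ± 0.27 (adjusted p = 0.054). The value of BCL2L1 passed with library totals, at -0.79 (adjusted p = 0.0238), without a filter, at -0.77 (adjusted p = 0.0321), and without the second RiboLace library, at -1.03 (adjusted p = 0.013). HRK, another BH3-only gene, had no total RNA read and 300.2 and 410.0 CPM in RiboLace, at least 4718-fold higher. It reached the test only through RiboLace reads, so its direction was set by the filter and says nothing of the family's balance. With library totals in place of TMM, 3 genes of the family rose and 5 fell.

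The same contrast in line F3 uses other libraries and gave 7548 calls among 15338 genes (49.2%). The difference between the lines was tested gene by gene: 229 genes (1.49%) passed. Of the ribosomal protein genes, 8 of 86 passed this test, and their median was -1.27 in wild type and -2.04 in line F3. Glycolytic genes had medians of -1.77 and -2.07, and all 17 fell in F3 too. In the secretory list 2 of 46 passed, with medians of 0.36 and -0.06. The second F3 RiboLace library held 465052 counts, the fewest of the 8.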

How the data were processed

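Gene levels were measured by RNA sequencing of total RNA and of RiboLace pull-downs. The authors deposited raw read counts per gene in 1 table; STAR 2.6.0b, DESeq2 and GRCh38 are named, without roles, per the submitters' processing notes. The sources used here do not give the counting program, annotation, strand setting, ribosomal RNA removal or RiboLace library chemistry. Gene IDs were matched to GENCODE 29 (57429 of 58037; 608 unmatched). From 8 libraries, genes passing filterByExpr were fitted with edgeR 4.0.16 (R 4.3.3, TMM, quasi-likelihood F-test, Benjamini-Hochberg over 15338 genes, threshold 0.05); standard errors are approximate, from the F statistic. With 2 libraries a group, an exact two-sided permutation test cannot go below 0.333, so shares by RNA type carry no p. Shared sequence is the percentage of a transcript's 30-base words found in another gene. Start windows are from RefSeq. Alternatives included DESeq2 1.42.0, limma 3.58.1 voom, other scalings and filters, and leaving out each wild-type library. The fit was also run on simulated counts in which few genes changed and both assays had the same spread. That run does not cover a contrast with this many calls or RiboLace replicates that differ more than total RNA replicates.

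Named genes were, among called genes whose groups do not overlap, the largest changes, the most counted noncoding genes per type, up to 4 members of each list by smallest p, and a fixed set that included RUNX1, MYC and BCL2. Genes outside that rule, and the GC run and shared-word sets, were chosen after values were seen. The members and lists were chosen with earlier results of these data known.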

Additional observations from a re-analysis of the deposited data

Results flagged for a closer look

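The RiboLace contrast of 8 genes named above differed between wild-type cells and line F3 in the interaction test (edgeR quasi-likelihood, adjusted over all genes tested, where 1.49% of genes passed). Differences are wild type minus F3 on the log2 scale. MALAT1 was -0.43 in wild type and 2.46 in F3, a difference of -2.89 (adjusted p = 0.000364), and NEAT1 was -1.22 and 0.73, a difference of -1.95 (adjusted p = 0.00577). The histone genes HIST1H2AG (8.58 and 6.54, difference 2.04, adjusted p = 0.00445) and HIST1H1C (6.46 and 4.87, difference 1.59, adjusted p = 0.00475) rose in both lines. BAG3 was 1.10 in wild type and -0.74 in F3, a difference of 1.84 (adjusted p = 0.00532). The host gene SNHG1 was 2.09 and 0.79, a difference of 1.30 (adjusted p = 0.00721). SSR4 was 1.53 and 0.31, a difference of 1.22 (adjusted p = 0.0433), and RPS19 was 0.61 and -0.51, a difference of 1.12 (adjusted p = 0.0407). The total RNA of F3 is labelled as an 8 h control and that of wild type as untreated, while the column names of both carry the same 0h tag; line and any difference in handling cannot be told apart.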

How the results depend on the processing

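The count of 7408 called genes moved to 4215 when 10 reads were required in each wild-type library, to 4932 with total RNA thinned to the RiboLace depth and to 3164 with a 2-fold minimum; fewer genes or reads enter the first 2 by construction, and the third asks for more. It was 6512 with a replicate block, which changed no direction of a call; same-numbered libraries did not deviate together (r = -0.049), and the labels give no pairing. Leaving out each library gave 5737 to 6669 calls. Other settings gave 4973 to 8906. Library totals moved the median of all genes by -0.143 and thinning by 0.162. The share of rises among coding calls was 44.2%, 33.7% with library totals, 56.2% with thinning and 58.8% with the 2-fold minimum.

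The coding share of RiboLace, 76.2% on average, was 84.31% without MIR6087. The length difference of -0.284 ranged from -0.187 to -0.456 when a library was left out. More members rose than fell in 18 of 39 lists, and in 13 to 20 under the alternatives. The 18 include the histone, snoRNA and other small RNA lists, whose members mostly reached the test through RiboLace. They also include a list made after values had been seen. The balance of lists was therefore partly set in advance and is not read as a result. Of 120 named genes tested, 112 were called. Most were named because they were called, so that share and their stability follow in part from the choice. None of the 112 changed direction under any of 17 settings. With total RNA thinned 111 kept their call, and with the 2-fold minimum 89. With the 10-read minimum, which leaves some of them untested, 92 did. SPI1, not called, was 0.08 with RLE size factors, DESeq2, the 10-read minimum, protein-coding genes alone and without mitochondrial, ribosomal protein and noncoding genes. It was 0.02 with both voom fits, 0.06 with the wild-type libraries alone, 0.16 with thinning, 0.01 with the replicate block and -0.13 to 0.30 when a library was left out. EEF2, not called, was -0.05 with library totals and without a filter, and -0.19 without the second RiboLace library. The cause of these changes was not tested. The RiboLace depth limits what can be said of genes under about 10 reads.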
